A study of Mus musculus with 8 samples.

Results

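The MHC class II genes and the factors that load and switch them on were described here in dendritic cells sorted from mouse tumours. They were taken as a list of 10 named genes, all of them found among the 24369 gene symbols of the count table: the classical chains H2-Aa, H2-Ab1 and H2-Eb1, the invariant chain Cd74, the DM genes H2-DMa, H2-DMb1 and H2-DMb2, the DO genes H2-Oa and H2-Ob, and the transactivator Ciita. The cells came from tumours of MC38-EGFP, a mouse colon carcinoma line that carries enhanced green fluorescent protein (EGFP). They were isolated by fluorescence-activated cell sorting as cDC1 or cDC2, the main subsets of conventional dendritic cells, and each subset was split by its EGFP signal. RNA sequencing gave 8 libraries in 4 groups of 2: EGFP+ cDC1, EGFP- cDC1, EGFP+ cDC2 and EGFP- cDC2.

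All 4 groups had the wild-type genotype (WT) and the same tumour source. The labels name no strain, age, sex, drug or number of animals for them, and their field for the cell type reads colon cancer, although the titles give dendritic cell subsets. Nothing states that replicates 1 and 2 came from separate mice, so every p-value below measures only the spread between these libraries, which may be technical.

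MHC class II molecules are pairs of an alpha and a beta chain that show peptides from engulfed protein to CD4 T cells. New pairs bind the invariant chain, which guides them to endosomes, where cathepsins cut it down to a short remnant in the peptide groove. DM exchanges that remnant for antigen peptides, DO restrains DM, and the promoters of most of these genes share X and Y boxes, on which RFX and NF-Y proteins recruit the transactivator CIITA.

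The promoter stretches of 6 of these genes are shown because those boxes are what the genes have in common, while their levels below part into a group with modest and a group with large differences between the subsets. The sequences are from RefSeq (GRCm38.p6), whose promoter windows run from 250 bases before to 50 bases after a start site, and 7 of the 10 genes had a window. Each line runs 5′ to 3′ on the strand of the gene. Capitals mark the letters TGATTGG, a longer form of the Y box core ATTGG, and in 3 of them also the X box core CCNNGNAAC.
H2-Aa (chr17:34287862-34287919, minus strand): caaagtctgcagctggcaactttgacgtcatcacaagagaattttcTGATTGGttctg
H2-Eb1 (chr17:34305760-34305817, plus strand): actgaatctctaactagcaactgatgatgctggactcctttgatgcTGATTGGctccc
H2-DMb1 (chr17:34153082-34153139, plus strand): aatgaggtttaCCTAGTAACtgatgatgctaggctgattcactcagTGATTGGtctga
H2-DMb2 (chr17:34145111-34145168, plus strand): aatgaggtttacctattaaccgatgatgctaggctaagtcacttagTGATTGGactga
H2-Oa (chr17:34092288-34092345, plus strand): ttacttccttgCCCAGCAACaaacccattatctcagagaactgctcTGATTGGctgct
H2-Ob (chr17:34238800-34238857, plus strand): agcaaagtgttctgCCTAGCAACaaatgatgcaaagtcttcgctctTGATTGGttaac

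Both strands were searched. The 7 genes had 8 windows, because H2-DMa had 2. The Y box core lay in 7 of the 8 windows, against 37.4% of all 32851 promoter windows. Its longer form, chosen after the sequences were seen, lay in 6 of the 8, against 7.82%. The longer form began at -50 bases from the RefSeq start site in H2-Aa, -61 in H2-Eb1, -63 in H2-DMb1, -92 in H2-DMb2, -45 in H2-Oa and -59 in H2-Ob, as the map of X and Y box letters shows. The X box core was found in 4 of the 8 windows (of H2-DMa, H2-DMb1, H2-Oa and H2-Ob), against 15.1% of all windows. In H2-DMa the X box core and the Y box core lay in different windows. An X box core followed on the same strand by a Y box core, with 10 to 30 bases between them, was found in H2-DMb1, H2-Oa and H2-Ob, with 26, 26 and 23 bases between the X box core and the longer Y box, and in 0.362% of all windows. These 3 genes include 1 with a modest and 2 with a large difference between the subsets. The remaining windows, of H2-Aa, H2-Eb1 and H2-DMb2 and the other of H2-DMa, did not hold these exact X box letters, which says nothing of RFX binding there.

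**Figure D1:**
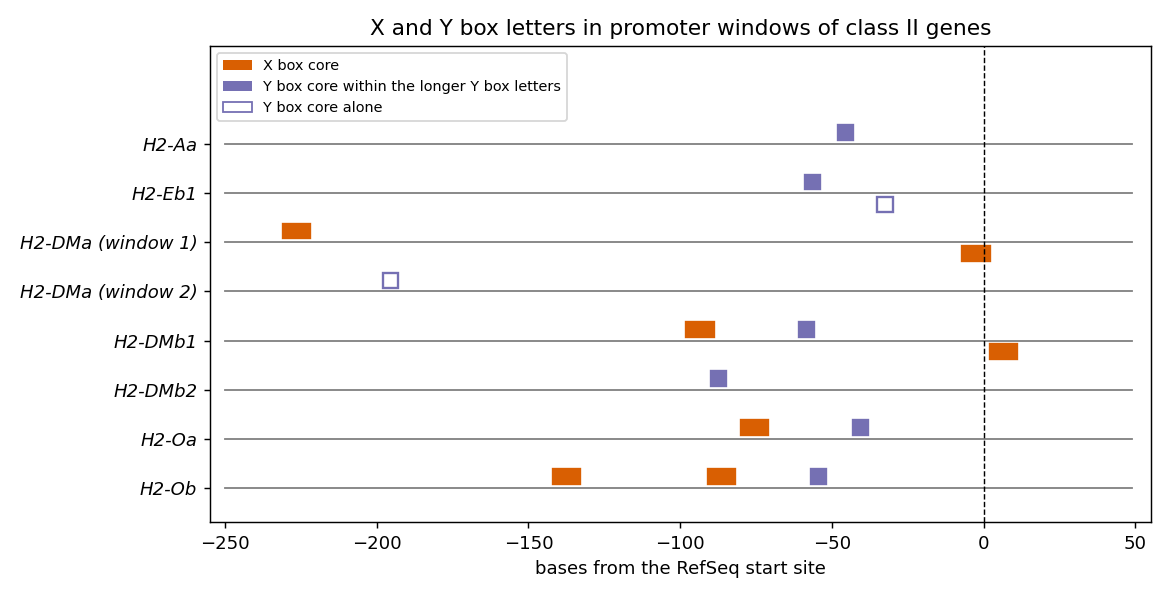
Positions of X box and Y box core letters in the RefSeq promoter windows of 7 class II genes (H2-DMa has 2 windows), in bases from the start site on the x axis. Marks above a line are on the strand of the gene and marks below it on the opposite strand. The longer Y box letters stand between -92 and -45 in 6 genes.

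In the mouse genome (GRCm38, GENCODE M21), 8 of the 10 genes lie within the MHC on chromosome 17. From H2-Oa at chr17:34092340-34095234 the order runs through H2-DMa (34119541-34139101), H2-DMb2 (34143307-34151555), H2-DMb1 (34153072-34160230), H2-Ob (34238903-34254414), H2-Ab1 (34257689-34269419), H2-Aa (34282744-34287823, minus strand) and H2-Eb1 (34305867-34316674). For H2-DMb1, H2-DMb2 and H2-Oa the RefSeq start site lies far enough inside the span of the gene that the stretch printed above overlaps that span. Cd74 lies at chr18:60803848-60812652 and Ciita at chr16:10480059-10528418. H2-DMb1 and H2-DMb2 are near copies of each other. Their transcripts were 95.33% identical over 1093 aligned bases, and 27.23% of the 50-base windows of H2-DMb1 also occurred in H2-DMb2, so the split of reads between the pair is uncertain. The other 8 genes shared none of their 50-base windows with another gene.

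Library totals ranged from 17869441 to 22195681 counts, of which the ribosomal RNA precursor Rn45s took 19.4% to 35.6%. Levels are given in CPM after TMM scaling, that is, as counts brought to equal library sizes, and 3 counts in a library corresponded to between 0.131 and 0.211 CPM. Replicates agreed least in EGFP+ cDC1, with a Pearson correlation of log2 CPM across genes of 0.629, against 0.8504 to 0.898 in the other groups. No replicate pair agreed within sampling noise. The sorted identities were read from marker genes. Summed cDC1 markers (10 genes) stood at 1880 to 3929 CPM in cDC1 libraries and 140 to 406 CPM in cDC2 libraries, and cDC2 markers (6 genes) at 6.74 to 326 CPM in cDC1 and 678 to 839 CPM in cDC2. Most of the cDC2 marker sum in cDC2 libraries came from Sirpa and Itgam, which did not overlap between the subsets. Cd209a, Mgl2, Irf4 and Clec10a overlapped, with Mgl2 highest in EGFP- cDC1 replicate 2, at 220 CPM. Genes of both cDC subsets (Flt3, Zbtb46, Dpp4, Kit and Btla) summed to 248 to 727 CPM in cDC1 but only 2.77 to 25.9 CPM in cDC2. Macrophage and monocyte markers (14 genes) summed to 426 to 12376 CPM in cDC1 and 20194 to 45010 CPM in cDC2, with Mertk at 0 in all cDC1 libraries. The libraries labelled cDC2 thus held little of the shared cDC transcripts and much of the macrophage ones, and the part of this in the differences between subsets was not tested.

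The first question was how the subsets differ in class II genes. All 10 genes passed the filter on low counts, and 5 of them, H2-Aa, H2-Ab1, H2-Eb1, H2-DMb2 and H2-Oa, were higher in cDC1 than in cDC2 past the threshold over both EGFP fractions, while 0 were lower. Over all 11394 genes tested, 0.816% were higher and 0.5% lower in cDC1 (edgeR quasi-likelihood test, Benjamini-Hochberg adjusted p under 0.05). The levels of 9 of the 10 genes did not overlap between the 4 cDC1 and the 4 cDC2 libraries, with cDC1 higher each time, against 3.96% of all genes tested. The median log2 fold change of cDC1 over cDC2 was 1.53 for the 10 genes, beside -0.28 for all genes tested. Together the 10 genes made up 9.75% and 10.02% of the counts other than Rn45s in EGFP+ cDC1 and 11.8% in each EGFP- cDC1 library, against 4.19% and 2.49% in EGFP+ cDC2 and 5.21% and 4.91% in EGFP- cDC2. Exact binomial 95% intervals for these shares are narrow, such as 9.74% to 9.77% for EGFP+ cDC1 replicate 1, and cover counting error only. In RNA pooled from sorted cells, fewer cells of a type and less RNA per cell cannot be told apart.

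**Figure D2:**
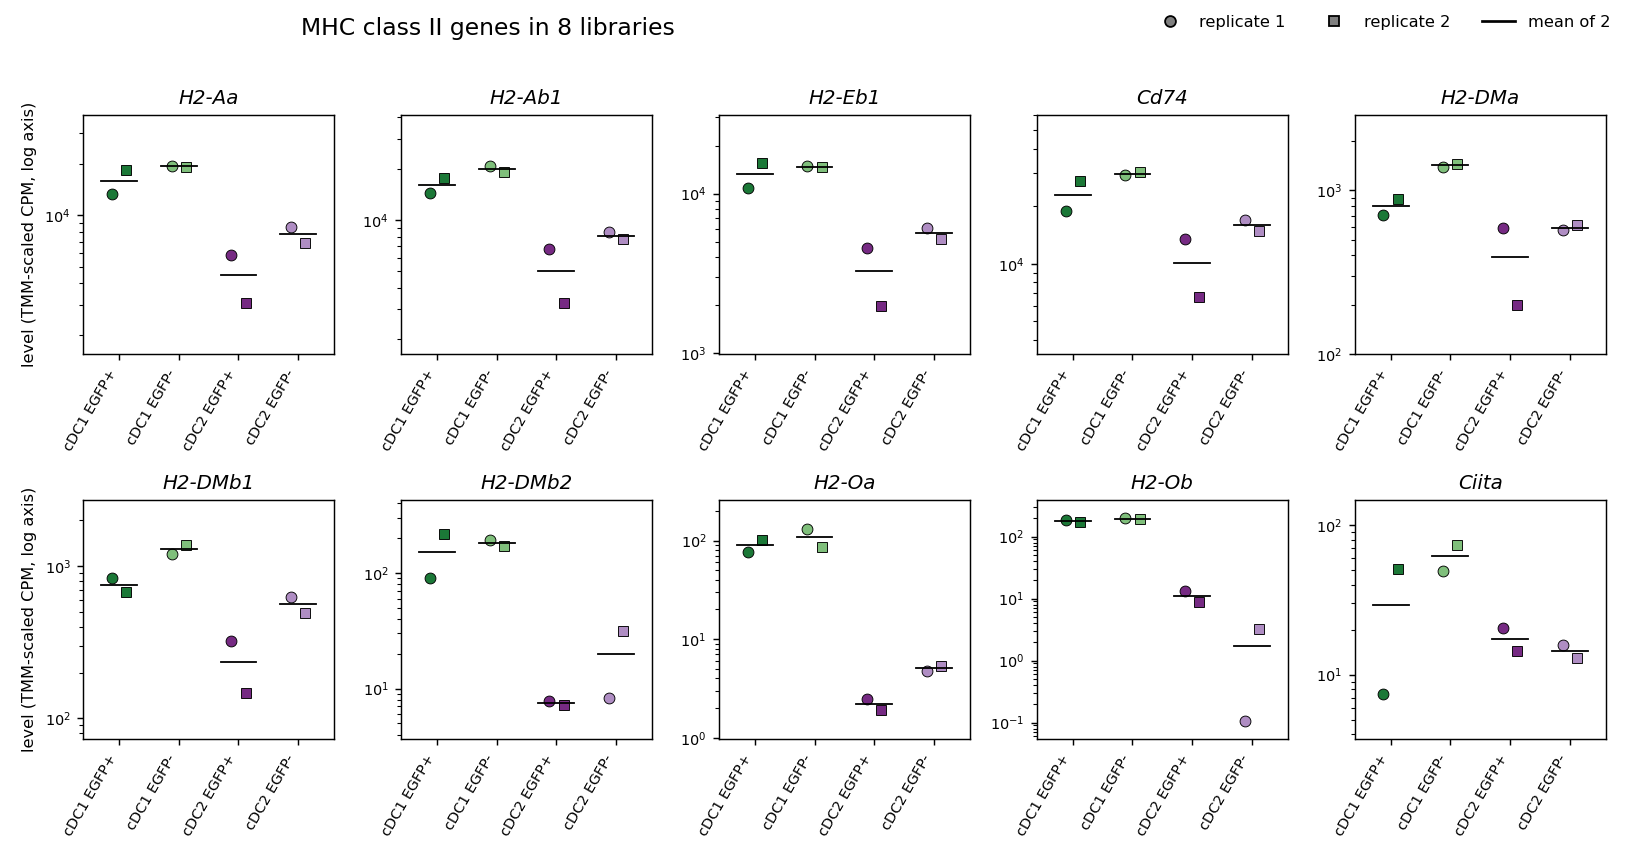
Level of each class II gene in each of the 8 libraries, in TMM-scaled CPM on a log axis, by group. Points are libraries and bars are means of 2. Every cDC1 library lies above every cDC2 library except in Ciita, where EGFP+ cDC1 replicate 1 stands at 7.40 CPM.

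Classical chains, once paired, form the molecules that reach the cell surface: H2-Aa encodes the alpha chain and H2-Ab1 the beta chain of I-A, and H2-Eb1 the beta chain of I-E. H2-Aa stood at 13219 and 18321 CPM in EGFP+ cDC1 and 19332 and 19185 CPM in EGFP- cDC1, against 5826 and 3070 CPM in EGFP+ cDC2 and 8562 and 6874 CPM in EGFP- cDC2. H2-Ab1 stood at 14450 and 17681 CPM in EGFP+ cDC1 and 20800 and 19214 CPM in EGFP- cDC1, against 6754 and 3255 CPM in EGFP+ cDC2 and 8486 and 7733 CPM in EGFP- cDC2. H2-Eb1 stood at 10799 and 15635 CPM in EGFP+ cDC1 and 14812 and 14579 CPM in EGFP- cDC1, against 4576 and 1965 CPM in EGFP+ cDC2 and 6090 and 5177 CPM in EGFP- cDC2. The lowest cDC1 library was above the highest cDC2 library for each chain, and EGFP+ cDC2 replicate 2 was the lowest of all 8 libraries.

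All 3 classical chains were therefore higher in cDC1. H2-Aa averaged 17514 ± 2898 CPM in cDC1, against 6083 ± 2303 CPM in cDC2 (SD, n = 4 libraries each), which is a log2 fold change of 1.57 ± 0.29 (SE, adjusted p = 0.0339). The values for H2-Ab1 were 18036 ± 2709 and 6557 ± 2313 CPM (1.49 ± 0.28, adjusted p = 0.0381), and for H2-Eb1 13956 ± 2153 and 4452 ± 1771 CPM (1.70 ± 0.32, adjusted p = 0.0389). These calls were near the threshold. H2-Aa and H2-Eb1 lost theirs in 5 of the 8 fits that left out 1 library, with adjusted p up to 0.124 and 0.128, and H2-Ab1 in 6, up to 0.139. Those 5 fits lacked either EGFP- cDC1 library, either EGFP- cDC2 library or EGFP+ cDC2 replicate 1, and the additional one for H2-Ab1 lacked EGFP+ cDC1 replicate 2 (adjusted p = 0.0503).

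The proportion of H2-Ab1 to H2-Aa was nearly constant. Their log2 ratio, taken from CPM plus 0.5 within each library, ranged from -0.05 to 0.13 in cDC1 and from -0.01 to 0.21 in cDC2. The levels of this pair followed each other over the 8 libraries with a Pearson correlation of log2(CPM + 1) of 0.996, a description over libraries that fall into 2 subsets. H2-Eb1 stood lower than H2-Ab1 in all 8 libraries, with a log2 ratio of -0.37 ± 0.14 in cDC1 and -0.59 ± 0.10 in cDC2 (SD, n = 4 each), and the 2 subsets overlapped only narrowly, with -0.49 the lowest in cDC1 and -0.48 the highest in cDC2. The E alpha chain, the partner of H2-Eb1, was listed as the pseudogene H2-Ea-ps, with counts in EGFP- cDC1 replicate 1 alone, at 0.888 CPM, and it was not tested. The H2-Eb1 levels are therefore of RNA only and do not show that I-E was formed or reached the surface.

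Cd74, the invariant chain, was the most abundant of the 10 genes in every group, also per length. It stood at 18890 and 27205 CPM in EGFP+ cDC1 and 29024 and 30257 CPM in EGFP- cDC1, against 13528 and 6712 CPM in EGFP+ cDC2 and 17030 and 14881 CPM in EGFP- cDC2. No cDC2 library reached the lowest cDC1 library, but the gap was small. The means of 26344 ± 5125 CPM in cDC1, against 13038 ± 4457 CPM in cDC2 gave a log2 fold change of 1.04 ± 0.28 that did not pass the threshold (adjusted p = 0.138). Relative to H2-Ab1, Cd74 was lower in cDC1: the log2 ratio was 0.54 ± 0.13 in cDC1 and 0.999 ± 0.041 in cDC2, a difference of -0.46. The ratio did not overlap between the subsets, at 0.39 to 0.66 in cDC1 and 0.94 to 1.04 in cDC2.

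DM consists of an alpha chain from H2-DMa and a beta chain from H2-DMb1 or H2-DMb2. H2-DMa stood at 706 and 890 CPM in EGFP+ cDC1 and 1390 and 1452 CPM in EGFP- cDC1, against 589 and 199 CPM in EGFP+ cDC2 and 569 and 614 CPM in EGFP- cDC2. H2-DMb1 stood at 830 and 677 CPM in EGFP+ cDC1 and 1207 and 1369 CPM in EGFP- cDC1, against 323 and 146 CPM in EGFP+ cDC2 and 626 and 496 CPM in EGFP- cDC2. For both genes the EGFP- cDC1 libraries were highest, and the EGFP+ cDC1 libraries stood closer to EGFP- cDC2 than to EGFP- cDC1 in CPM. Over both fractions the log2 fold change of cDC1 over cDC2 was 1.14 ± 0.33 for H2-DMa (adjusted p = 0.176) and 1.44 ± 0.30 for H2-DMb1 (adjusted p = 0.0594), and neither passed.

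H2-DMb2 behaved differently from H2-DMb1. It stood at 90.0 and 216 CPM in EGFP+ cDC1 and 192 and 172 CPM in EGFP- cDC1, against 7.86 and 7.28 CPM in EGFP+ cDC2 and 8.25 and 31.3 CPM in EGFP- cDC2. The 4 cDC1 libraries were all above the cDC2 ones, of which EGFP- cDC2 replicate 2 was the highest. The means of 168 ± 54.8 CPM in cDC1, against 13.7 ± 11.8 CPM in cDC2 gave a log2 fold change of 3.77 ± 0.53, a 13.6-fold difference (adjusted p = 0.0111), and the call held in all 16 alternatives, with an adjusted p of at most 0.0426. The log2 ratio of H2-DMb2 to H2-DMb1 was -2.62 ± 0.69 in cDC1 and -4.91 ± 1.01 in cDC2 (SD, n = 4 each), a difference of 2.29 with no overlap. H2-DMb1 thus outnumbered H2-DMb2 in every library, but by less in cDC1, within the limits of the read sharing described above.

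DO is the pair of H2-Oa and H2-Ob, and in mice it is best known from B cells and thymic epithelium, with expression in some dendritic cells. H2-Oa stood at 76.5 and 102 CPM in EGFP+ cDC1 and 130 and 85.5 CPM in EGFP- cDC1, against 2.45 and 1.93 CPM in EGFP+ cDC2 and 4.80 and 5.30 CPM in EGFP- cDC2. All cDC1 libraries were more than 10 times as high as any cDC2 library. The means were 98.6 ± 23.7 CPM in cDC1, against 3.62 ± 1.68 CPM in cDC2, which is a log2 fold change of 4.88 ± 0.42 or 29.4-fold (adjusted p = 0.00109), which ranked 6 by p among all genes tested. The call held in all 16 alternatives, with an adjusted p of at most 0.00755. H2-Oa was also past the threshold within each fraction, at 5.35 ± 0.52 between the EGFP+ groups (adjusted p = 0.0253) and 4.42 ± 0.49 between the EGFP- groups (adjusted p = 0.0287). Each of these calls was lost in 4 of the 8 fits without 1 library, that between the EGFP- groups without any one of their own libraries (adjusted p up to 0.243), and that between the EGFP+ groups without any one of the cDC2 libraries (up to 0.132), while the log2 fold change stayed between 4.08 and 5.66. In a fit of the 4 EGFP+ libraries alone 0 genes were called.

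H2-Ob stood at 183 and 172 CPM in EGFP+ cDC1 and 198 and 189 CPM in EGFP- cDC1, against 13.4 and 8.96 CPM in EGFP+ cDC2 and 0.107 and 3.29 CPM in EGFP- cDC2. It had the narrowest spread of the 10 genes in cDC1 relative to its mean, at 186 ± 10.9 CPM, and a wide spread in cDC2, at 6.44 ± 5.90 CPM. The lowest of the cDC2 values, in EGFP- cDC2 replicate 1, rested on 2 counts, against 74 counts in EGFP- cDC2 replicate 2. The log2 fold change of 5.38 ± 1.05 was the largest of the 10 genes but did not pass (adjusted p = 0.0555). Without EGFP- cDC2 replicate 1 it was 4.67 ± 0.54 and passed (adjusted p = 0.00551), and it passed in 6 of the 16 alternatives in all.

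Markers of B cells and plasmacytoid dendritic cells, other cells that may carry DO genes, were read beside these values. Of 7 B cell markers, 6 were at 0 in EGFP+ cDC1, where Cd79b alone reached 13.9 CPM in replicate 2, and 7 in EGFP- cDC1. In EGFP+ cDC2 5 and in EGFP- cDC2 6 were at 0, with sums of 2.82 to 4.89 CPM and 0.935 to 3.40 CPM. Cd79a, Ms4a1 and Pax5 were at 0 in every library. Markers of plasmacytoid dendritic cells (6 genes) summed to 107 to 109 CPM in EGFP+ cDC1 and 82.4 to 167 CPM in EGFP- cDC1, against 189 to 287 CPM in EGFP+ cDC2 and 126 to 129 CPM in EGFP- cDC2, mostly from Bst2, with Ly6d and Spib at 0 in all 8 libraries. Bst2 and Tcf4 overlapped between the subsets, but Siglech and Ccr9 leaned to cDC1. Siglech stood at 2.49 CPM in EGFP+ cDC1 replicate 1, 0.886 CPM in EGFP- cDC1 replicate 2 and 0 in cDC2. Ccr9 stood at 17.5 and 0 CPM in EGFP+ cDC1 and 6.12 and 3.82 CPM in EGFP- cDC1, against at most 0.573 CPM in cDC2. The part of such cells in the DO levels was not tested.

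The level of DO relative to DM, which it restrains, therefore differed between the subsets. Summed per kilobase of exon, DO was 13.5% and 15.2% of DM in EGFP+ cDC1 and 11.8% and 8.18% in EGFP- cDC1, against 1.33% and 2.37% in EGFP+ cDC2 and 0.669% and 0.966% in EGFP- cDC2. All cDC1 values were above all cDC2 values. The log2 ratio of H2-Oa to H2-DMa, in CPM, was -3.45 ± 0.44 in cDC1 and -6.87 ± 0.55 in cDC2, a difference of 3.42, and that of H2-Ob to H2-DMb1 was -2.40 ± 0.40 in cDC1 and -6.38 ± 2.76 in cDC2 (SD, n = 4 each). DM relative to the classical chains showed no such split, at 2.38% to 3.95% per kilobase in cDC1 and 2.81% to 3.91% in cDC2. The log2 ratio of H2-DMa to H2-Ab1 also overlapped, at -4.07 ± 0.31 in cDC1 and -3.77 ± 0.23 in cDC2. These ratios are of RNA and carry no test.

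**Figure D3:**
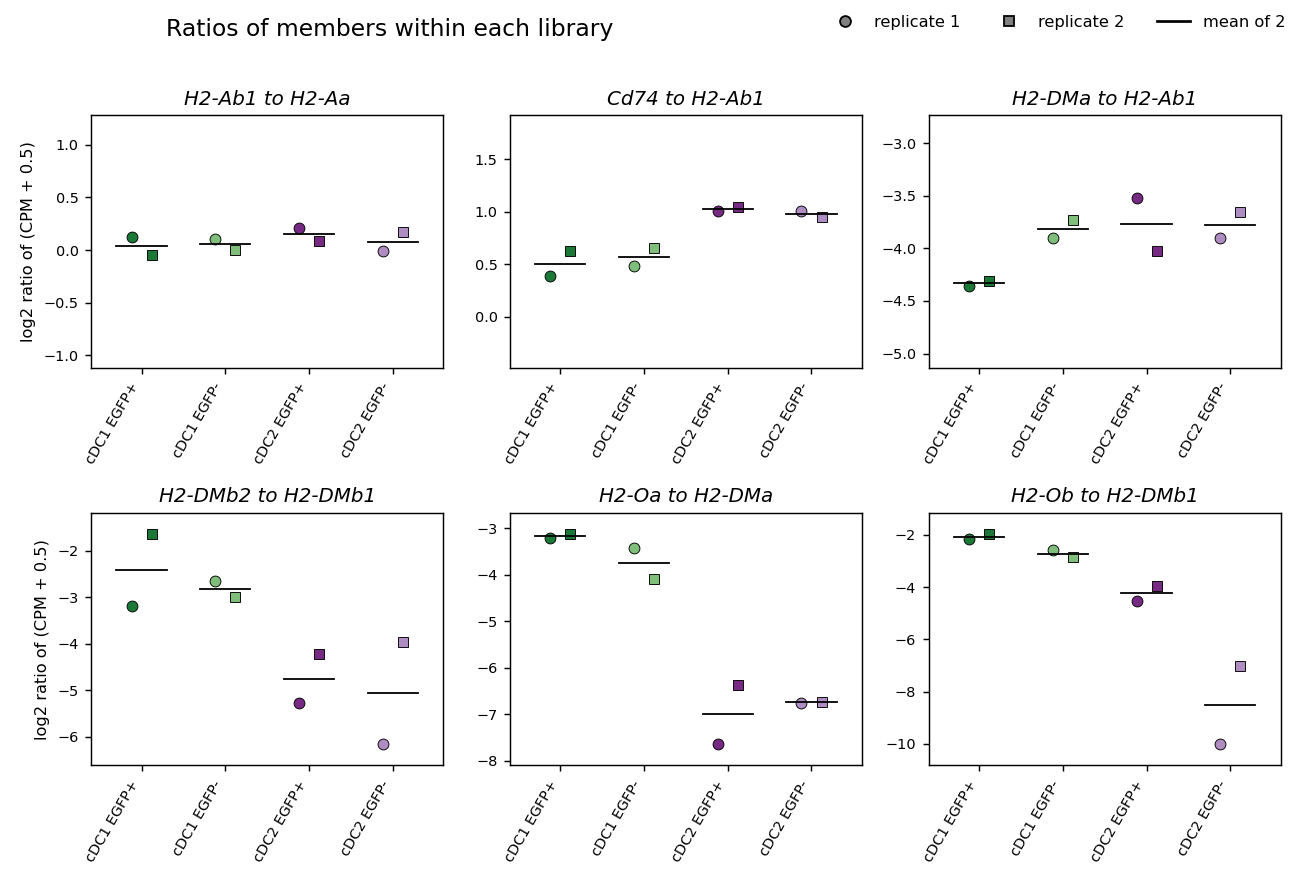
Log2 ratios of CPM plus 0.5 between class II genes within each library (y axis), by group. Points are libraries and bars are means of 2. H2-Ab1 to H2-Aa and H2-DMa to H2-Ab1 overlap between the subsets, Cd74 to H2-Ab1 is lower in cDC1, and the ratios of H2-DMb2, H2-Oa and H2-Ob to a DM gene are higher in cDC1.

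Ciita, which encodes the transactivator of class II promoters, was the only gene of the list whose levels overlapped between the subsets. It stood at 7.40 and 50.7 CPM in EGFP+ cDC1 and 49.2 and 74.2 CPM in EGFP- cDC1, against 20.5 and 14.3 CPM in EGFP+ cDC2 and 15.7 and 12.95 CPM in EGFP- cDC2. In 3 of the 4 cDC1 libraries it was above every cDC2 library, and EGFP+ cDC1 replicate 1 was the lowest of the 8. The means were 45.4 ± 27.8 CPM in cDC1, against 15.9 ± 3.27 CPM in cDC2, and the log2 fold change of 1.42 ± 0.65 did not pass (adjusted p = 0.379, and 0.0519 without EGFP+ cDC1 replicate 1). In that library the other 9 genes all stood above every cDC2 library, and the part of Ciita in their levels was not tested. Ciita was also the gene least tied to the rest of the list, with Pearson correlations over the 8 libraries of 0.510 to 0.667 with the other 9 genes, against 0.980 to 0.997 among the classical chains and Cd74.

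Levels per length put Cd74 first and H2-Eb1 last of the chains in all groups, with H2-Aa above H2-Ab1 in 3 of them and below it in EGFP+ cDC2, by less than the spread between libraries. In EGFP+ cDC1, EGFP- cDC1, EGFP+ cDC2 and EGFP- cDC2, mean Cd74 stood at 16276, 20933, 7147 and 11268 CPM per kilobase, H2-Aa at 13981, 17073, 3943 and 6842, H2-Ab1 at 13256, 16507, 4129 and 6691, and H2-Eb1 at 7359, 8182, 1821 and 3137. Among the loading factors H2-DMb1 came next, at 536, 917, 167 and 399 CPM per kilobase. Its place above H2-DMa depends on the length used, since the joined exons of H2-DMa span 2668 bases but its first-numbered transcript 1658. Ciita was lowest in the cDC1 groups, at 3.52 CPM per kilobase in EGFP+ cDC1 and 7.47 in EGFP- cDC1. In EGFP+ cDC2 it stood at 2.10 beside H2-Oa at 2.01, within the spread between libraries, and in EGFP- cDC2 at 1.73, with H2-Ob lower, at 0.484. The order of the groups for the classical chains, Cd74, the DM genes and H2-Oa was EGFP- cDC1, EGFP+ cDC1, EGFP- cDC2 and EGFP+ cDC2 from high to low. The libraries of neighbouring groups overlapped for H2-Eb1, H2-DMb2 and H2-Oa between the cDC1 groups and for H2-DMa between the cDC2 groups. H2-Ob had EGFP+ cDC2 above EGFP- cDC2, and for Ciita every pair of neighbours overlapped.

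Within single EGFP fractions, with 2 libraries a side, H2-Oa was the 1 gene of the 10 that passed. Between the EGFP+ groups 0.114% of all genes tested were higher in cDC1, and between the EGFP- groups also 0.114%. All 10 genes were higher in both EGFP- cDC1 libraries than in both EGFP- cDC2 libraries, against 21.9% of all genes, and 9 of 10 in the EGFP+ groups, against 13.7%, with Ciita the exception. The median log2 fold change of the 10 genes was 1.76 between the EGFP+ groups and 1.35 between the EGFP- groups, beside -0.30 and -0.04 for all genes tested.

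The second question was whether dendritic cells that carried tumour EGFP differed from those that did not. In neither subset did any class II gene pass the threshold. In cDC1 the 10 genes had log2 fold changes of EGFP+ over EGFP- of -1.09 to -0.13, with a median of -0.30 beside -0.04 for all genes tested. In cDC2 they ranged from -1.39 to 2.701, with a median of -0.74 beside 0.08. The share of all genes called was 0% in cDC1 and 0% in cDC2 with edgeR, although 1452 and 300 genes had an unadjusted p under 0.05, of which 0 and 3 were class II genes, and DESeq2 called 1325 and 110 genes, none of them among the 10.

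In cDC1, both EGFP+ libraries were below both EGFP- libraries for 6 of the 10 genes (H2-Aa, H2-Ab1, Cd74, H2-DMa, H2-DMb1 and H2-Ob), against 24% of all genes. For H2-Ob the log2 fold change was only -0.13, and it was 0.0196 with RLE scaling. The difference was small for the classical chains, at -0.29 ± 0.36 for H2-Aa, -0.32 ± 0.37 for H2-Ab1 and -0.15 ± 0.42 for H2-Eb1 (adjusted p = 0.774 to 0.951). H2-DMb2 had -0.25 ± 0.65 (adjusted p = 0.948), and its libraries overlapped. The values were larger for the other two DM genes: H2-DMa averaged 798 ± 130 CPM in EGFP+ and 1421 ± 43.7 CPM in EGFP- cDC1 (SD, n = 2 each; -0.83 ± 0.48, adjusted p = 0.448), and H2-DMb1 753 ± 109 and 1288 ± 115 CPM (-0.77 ± 0.40, adjusted p = 0.421). None of these differences passed the threshold.

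Ciita had a log2 fold change of -1.09 ± 0.87 in cDC1 (adjusted p = 0.599), and its EGFP+ replicates differed more from each other than the groups did. Without EGFP+ cDC1 replicate 2 the value was -3.06 and passed (adjusted p = 0.0345), with the remaining EGFP+ library assumed to vary like those of the other groups, and without replicate 1 it was -0.28. The same EGFP+ cDC1 libraries stood apart in other genes. Markers of mature, migratory dendritic cells (7 genes, among them the chemokine receptor Ccr7) summed to 546 and 5953 CPM in EGFP+ cDC1 replicates 1 and 2, against 372 and 138 CPM in EGFP- cDC1 replicates 1 and 2. Most of the EGFP+ sums came from Ccr7 alone, at 368 and 5498 CPM. Relb (79.2 and 230 CPM) and Ccl22 (20.6 and 128 CPM) were also higher in EGFP+ replicate 2, whereas Fscn1 (78.5 and 21.3 CPM) was lower. The macrophage and monocyte markers summed to 426 and 12376 CPM, against 2196 and 2898 CPM, in the same libraries. Their part in the Ciita values was not tested.

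In cDC2, both EGFP+ libraries were below both EGFP- libraries for 7 genes (the classical chains, Cd74, H2-DMb1, H2-DMb2 and H2-Oa), against 19.2% of all genes, and above them for H2-Ob, against 22.6%. The lowest unadjusted p was that of H2-DMb1, which averaged 234 ± 125 CPM in EGFP+ and 561 ± 92.3 CPM in EGFP- cDC2 (SD, n = 2 each), a log2 fold change of -1.26 ± 0.41 (adjusted p = 1). H2-Oa, at 2.19 ± 0.36 and 5.05 ± 0.35 CPM, had -1.20 ± 0.44 (adjusted p = 1). H2-Aa had -0.79 ± 0.37, H2-Ab1 -0.70 ± 0.37 and H2-Eb1 -0.78 ± 0.42. EGFP+ cDC2 replicate 2 was the lowest of the 4 cDC2 libraries for these 3 chains, for Cd74 and for all DM genes. Without it the value for H2-Aa was -0.41 and for H2-DMb1 -0.80, and without EGFP+ cDC2 replicate 1 they were -1.43 and -2.05, with none past the threshold.

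The EGFP difference itself was compared between the subsets. For the 10 genes, the difference in cDC1 minus that in cDC2 had a median of 0.43 beside -0.20 for all genes tested, and 0 of 10 passed, as did 0% of all genes, although 1180 had an unadjusted p under 0.05, 0 of them class II genes, and DESeq2 called 714, again 0 of the 10. H2-Ob stood out by size, with 178 ± 7.41 CPM in EGFP+ and 194 ± 6.62 CPM in EGFP- cDC1, but 11.2 ± 3.12 CPM in EGFP+ and 1.70 ± 2.25 CPM in EGFP- cDC2. The difference between these effects was -2.83 ± 1.48 (adjusted p = 0.530). Without EGFP- cDC2 replicate 1, the library with 2 counts of H2-Ob, it was -1.88, and without EGFP- cDC2 replicate 2 it was -6.73.

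**Figure D4:**
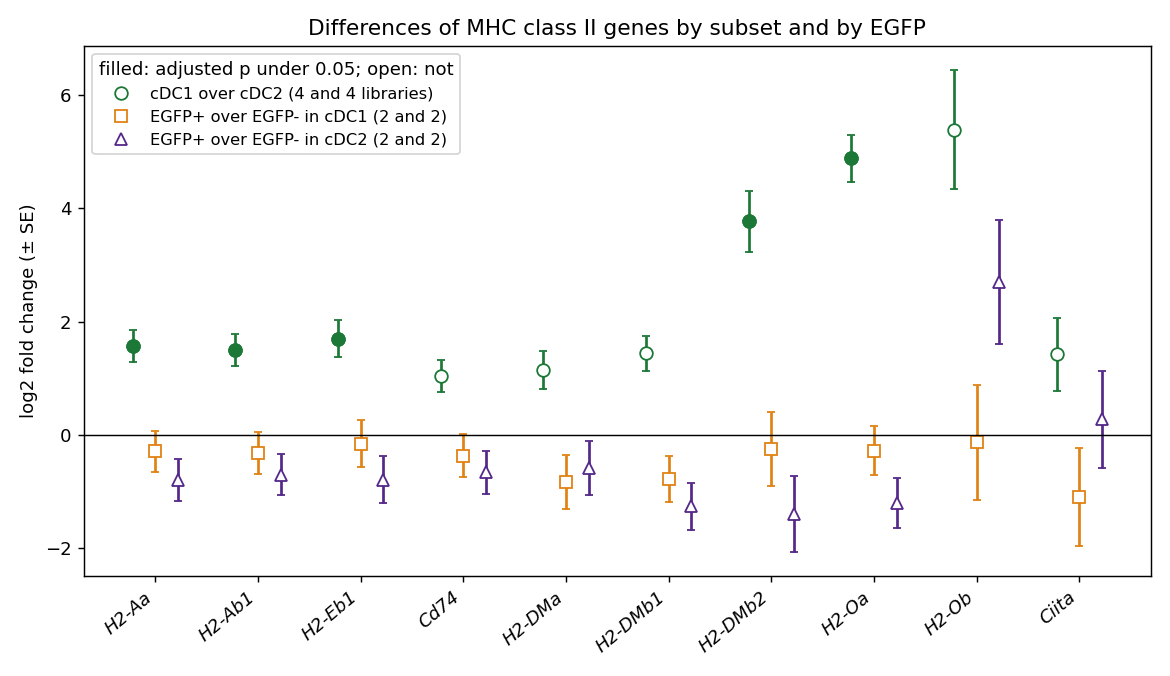
Log2 fold changes (y axis, with SE) of the 10 class II genes for cDC1 over cDC2 and for EGFP+ over EGFP- within each subset. Filled symbols have an adjusted p under 0.05. The 5 filled ones are all of cDC1 over cDC2, with H2-Oa at 4.88 and H2-DMb2 at 3.77 the largest of them.

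Other genes of the class II pathway were read from lists. Of 7 genes of the promoter complex (Rfx5, Rfxap, Rfxank, Nfya, Nfyb, Nfyc and Creb1), 0 passed between cDC1 and cDC2, with a median log2 fold change of 0.26, and their levels were low, with mean Nfyc at 46.5 ± 33.9 CPM in cDC1, against 16.7 ± 10.8 CPM in cDC2 (1.57 ± 0.78, adjusted p = 0.417). Of 9 signals and factors that act on Ciita, 1 was higher and 0 were lower, with a median of -0.24. It was Irf8, a transcription factor that cDC1 need for their development and therefore a marker of the sorted subset. Irf8 stood at 418 and 1318 CPM in EGFP+ cDC1 and 1485 and 1032 CPM in EGFP- cDC1, against 234 and 98.7 CPM in EGFP+ cDC2 and 304 and 219 CPM in EGFP- cDC2 (2.33 ± 0.42, adjusted p = 0.0346). Its call was lost without either EGFP- cDC1 library, either EGFP- cDC2 library or EGFP+ cDC2 replicate 2, with adjusted p up to 0.121. Jak2, a kinase of the interferon-gamma receptor, had 1.27 ± 0.53 (adjusted p = 0.332), and its libraries overlapped between the subsets. Jak1, another kinase of that receptor, leaned the other way, at 87.1 to 113 CPM in cDC1 and 117 to 136 CPM in cDC2. Of the receptor chains, Ifngr1 averaged 299 ± 199 CPM in cDC1 and 219 ± 142 CPM in cDC2. Ifngr2 averaged 70.9 ± 19.7 CPM in cDC1 and 94.9 ± 31.9 CPM in cDC2.

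Of 9 genes that cut the invariant chain and supply peptides, 0 were higher and 2 lower in cDC1, the lysosomal proteases Ctsb and Ctsd, and the median was -1.95. Ctsb averaged 474 ± 188 CPM in cDC1, against 2671 ± 574 CPM in cDC2 (-2.53 ± 0.33, adjusted p = 0.00801), and Ctsd 111 ± 80.2 and 1295 ± 437 CPM (-3.78 ± 0.50, adjusted p = 0.00801). Both calls held without any one library. Within the EGFP- fraction, where 0.246% of all genes tested were lower in cDC1, Ctsl was the third, at 11.4 ± 0.64 CPM in cDC1, against 1959 ± 771 CPM in cDC2 (-7.43 ± 0.89, adjusted p = 0.0290), a call that was lost without any one of the 4 libraries compared (adjusted p up to 0.251).

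Ctss, the cathepsin known for cutting the invariant chain in dendritic cells, had 490 and 3835 CPM in EGFP+ cDC1 and 1624 and 1028 CPM in EGFP- cDC1, against 9307 and 3323 CPM in EGFP+ cDC2 and 7534 and 5966 CPM in EGFP- cDC2. Its subsets overlapped, at -1.95 ± 0.60 (adjusted p = 0.2001). Lgmn, an endosomal protease, had -3.10 ± 0.90 (adjusted p = 0.194) and Ctsl -4.62 ± 1.56 over both fractions (adjusted p = 0.271). These proteases are also abundant in macrophages, whose summed markers were higher in cDC2 as given above, and the part of those cells in their levels was not tested.

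Of the genes that set how long class II stays at the surface, Marchf8 and Cd83 were in the table. Cd83, which protects class II from ubiquitin-driven turnover, stood at 785 and 1207 CPM in EGFP+ cDC1 and 1707 and 1207 CPM in EGFP- cDC1, against 143 and 164 CPM in EGFP+ cDC2 and 263 and 308 CPM in EGFP- cDC2. The subsets did not overlap, and Cd83 passed at 2.52 ± 0.27 (adjusted p = 0.00251), also without any one library. Marchf8, a ubiquitin ligase, was at 12.4 CPM in EGFP+ cDC1 replicate 2 and 13.6 CPM in EGFP+ cDC2 replicate 1 and lower elsewhere (-4.04 ± 3.19, adjusted p = 0.695). H2-Eb2, a little-studied beta chain gene beside H2-Eb1, had 38.1 CPM in EGFP+ cDC1 replicate 2 and 3.63 CPM in EGFP- cDC1 replicate 2, and at most 0.223 CPM in the other 6 libraries (5.88 ± 2.61, adjusted p = 0.367).

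**Figure D5:**
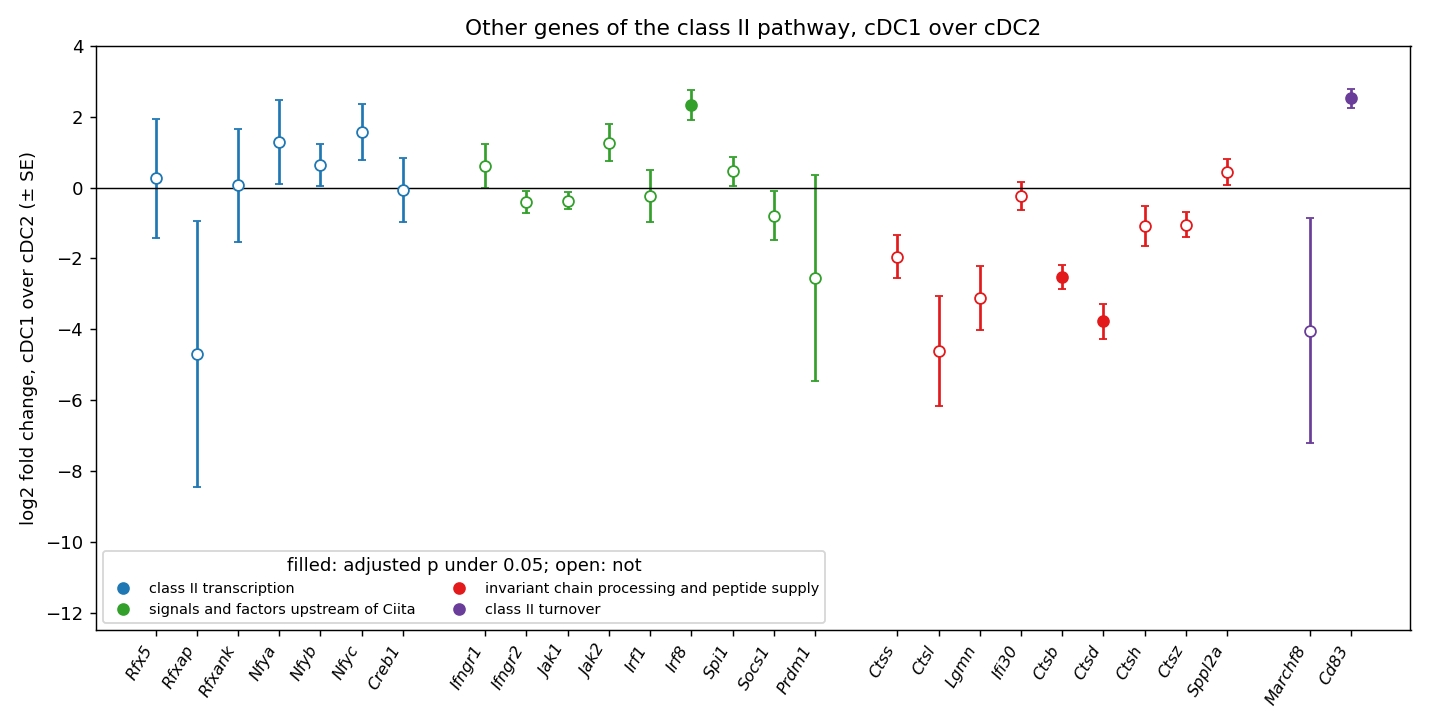
Log2 fold changes of cDC1 over cDC2 (y axis, with SE) for other genes of the class II pathway, grouped by list. Filled symbols have an adjusted p under 0.05: Irf8 at 2.33, Cd83 at 2.52, Ctsb at -2.53 and Ctsd at -3.78.

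The genes whose levels followed 4 of the class II genes most closely over the 8 libraries were found among 5923 genes with a mean of at least 10 CPM, by the Pearson correlation of log2(CPM + 1). For H2-Ab1 they were Dapp1, Lsp1, Ccnd3, Psmb9 and Dbnl, at 0.989 to 0.981. For H2-Oa they were Fnbp1, at 0.996, and Cd83, Kmo, Sri and Cnn2, at 0.983 to 0.982. H2-DMb1 was followed by Actg1, Myd88, Haao, Man2b1 and Actr3, at 0.984 to 0.970, and Ciita by Nt5c, Ube2b, Vti1a, Unc119 and Hes6, at 0.988 to 0.969. The 8 points of each correlation fall into 2 subsets, so a gene that differs between the subsets ranks high whatever its function. Psmb9, an interferon-inducible proteasome subunit of the class I pathway encoded in the MHC, averaged 519 CPM in cDC1, against 143 CPM in cDC2, and Kmo, an enzyme of tryptophan breakdown, 96.3 CPM in cDC1, against 1.03 CPM in cDC2.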

How the data were processed

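The deposited table held raw read counts as whole numbers, with 24369 gene symbols as rows and the 8 libraries as columns, and 0 columns had no sample. Trimmomatic 0.39, STAR 2.7.5c, Cufflinks 2.2.1 and the mm10 build are named in the submitters' processing notes. What program counted the reads, on which annotation and with which strand setting, is not given in the sources used here. Per the labels' protocols, the cDNA step followed a published protocol for small inputs, so PCR copies cannot be separated from molecules and floors and intervals cover counting error only. The deepest and shallowest libraries held 22195681 and 17869441 counts.

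The quasi-likelihood test of edgeR 4.0.16 (in R 4.3.3; glmQLFit, robust, then glmQLFTest) was run on the counts after TMM scaling. The filter filterByExpr, by group, kept 11394 genes, and p-values were adjusted over all of them by Benjamini-Hochberg, with 0.05 as the threshold. The comparison of subsets used subset and EGFP as additive terms over all 8 libraries, and the other contrasts came from 1 mean per group. Each SE is the log2 fold change divided by the root of its F statistic. Levels between genes used the joined exons of all coding transcripts of a gene in GENCODE M21, which can be longer than a given transcript. Ratios used CPM plus 0.5.

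The 10 genes, the pathway lists and the markers were chosen with earlier results of these data known. Of the pathway and marker lists, 2 genes are not reported here and were left out of the counts, sums and medians of their lists. All 10 were named, with the called members of each pathway list, up to 4 others of smallest p and a mean of at least 5 CPM, and for 4 genes the 5 most like in pattern. Genes such as Marchf8, H2-Eb2, H2-Ea-ps, Psmb9 and Kmo were described after their values were seen. Alternatives were RLE scaling, DESeq2 1.42.0, a filter of 10 CPM in 2 libraries or none, Rn45s removed, models of only the groups compared, subsets from the 4-group model, a replicate block, other pseudocounts and leaving out each library. The steps were tested on simulated data.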

Additional observations from a re-analysis of the deposited data

Results flagged for a closer look

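In 3 of 20 groups of 4 libraries (10 genes in 2 subsets, EGFP fractions joined), 1 library stood apart from the other 3 by Dixon's test. Chance flags about 1 in 20 such groups, and the 10 genes share their libraries. H2-Aa in EGFP+ cDC1 replicate 1 was at 13219 CPM, below the other cDC1 libraries. H2-DMa in EGFP+ cDC2 replicate 2 was at 199 CPM, below the other cDC2 libraries, where H2-Aa, H2-Ab1, H2-Eb1, Cd74 and H2-DMb1 were lowest too. H2-DMb2 in EGFP- cDC2 replicate 2 was at 31.3 CPM, above the other cDC2 libraries, and without that library the log2 fold change of cDC1 over cDC2 was 4.39.

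H2-Ob was lower in both EGFP+ than in both EGFP- libraries of cDC1 and higher in both of cDC2, but the log2 fold change in cDC1 was only -0.13 (edgeR, adjusted p = 1) and its sign turned with RLE scaling and with DESeq2, at 0.0196 in each. The difference between the effects was -2.83 on the log2 scale and did not pass (edgeR, adjusted p = 0.530).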

How the results depend on the processing

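Over 16 alternatives, 0 of 160 log2 fold changes of the 10 genes between subsets changed sign. Of all 600 values over the subset and EGFP comparisons, 557 kept their sign and their side of the threshold, 22 lost and 11 gained a call, and 10 changed sign, all of them EGFP values that passed in no fit. For EGFP+ over EGFP- in cDC1, H2-Ob was at 0.0196 with RLE scaling and 0.0196 with DESeq2. Leaving out 1 library gave -0.54 to 0.0674 for H2-Oa (positive without EGFP- cDC1 replicate 1), and -0.44 to 0.0944 for H2-Eb1 and -1.01 to 0.26 for H2-DMb2 (positive without EGFP+ cDC1 replicate 1). In cDC2, Ciita ranged from -0.10, without EGFP+ cDC2 replicate 1, to 0.51. The difference of the EGFP effects ranged from -0.12, without EGFP- cDC2 replicate 2, to 1.81 for H2-DMb2, from -0.82 to 0.90, without EGFP+ cDC2 replicate 1, for H2-DMa, and from -0.0474 to 1.16 for H2-Ab1 and -0.12 to 1.04 for Cd74, both lowest without EGFP+ cDC2 replicate 2. RLE scaling moved the median of all genes by 0.11 between the EGFP+ groups and by 0.14 for the difference of the EGFP effects, and by less than 0.06 elsewhere.

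Counts of called genes depended on the tool. DESeq2 called 1160 genes and 9 of the 10 class II genes between subsets, 838 and 3 between the EGFP- groups, 1586 and 8 between the EGFP+ groups, and 1325, 110 and 714 genes for EGFP in cDC1, EGFP in cDC2 and the difference of those effects. Without a low-count filter the counts were 236 genes between subsets, 112 genes with 2 class II genes between the EGFP- groups, 153 with 5 between the EGFP+ groups, 57 for EGFP in cDC1 and 29 for the difference. Fits of the compared libraries alone called 292 genes with 5 class II genes between the EGFP- groups and 0 with 0 between the EGFP+ groups, and the 4-group model 275 genes between subsets. Leaving out both EGFP+ cDC1 libraries, chosen after seeing the data, gave 392 genes and 3 class II genes between subsets (H2-DMb2, H2-Oa and H2-Ob). The cause of these differences was not tested.

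Leaving out 1 library at a time gave 50 to 277 genes and 2 to 5 class II genes between subsets, 1 to 465 and 0 to 3 between the EGFP- groups, 1 to 1273 and 0 to 5 between the EGFP+ groups, 0 to 1050 and 0 to 1 for EGFP in cDC1, and 0 to 668 genes for the difference of the EGFP effects.

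The replicate numbers were not shown to pair the libraries: same-numbered libraries had correlations of their deviations from -0.22 to 0.04. The bracketed codes in the titles have a part that same-numbered libraries of all groups share. The labels do not explain this part, so whether it marks a shared source is unknown. With the replicate number as a block, 82 genes and 2 class II genes (H2-DMb2 and H2-Oa) were called between subsets, 3 and 0 between the EGFP- groups and 0 and 0 between the EGFP+ groups. With the numbers of EGFP+ cDC2 exchanged in the block, chosen after seeing the data, the last comparison gave 8 genes and 0 class II genes.

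With 2 libraries a group and a biological coefficient of variation of 1.13, the median SE of a log2 fold change over all genes was 1.41 between subsets and 1.75 for EGFP in cDC1. Modest differences were thus seldom detectable over all genes. The classical chains, H2-DMa and H2-DMb1 had smaller SEs in both comparisons, as given with their values above. A missed threshold does not show that levels were alike. Whether replicates are separate animals is unknown.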
